A study of Mus musculus with 36 samples.

Results

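Type I interferon-stimulated genes are the genes that cells switch on when interferon alpha or beta binds its receptor, and 35 of them were described here in mouse CD8 T cells. They were taken as a list of symbols, and each was represented by the probe set (a group of short probes for 1 transcript) with the highest mean over 36 arrays. Of the 35 listed genes, 33 were measured among 18193 genes in all. Ifi44 was not listed with a probe set, and the only set of Isg15 also lists Gm9706, so both were left out. Of the 33 measured members, 18 had 1 probe set and 15 had several.

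The arrays measured RNA of OT-I CD8 T cells, whose T cell receptor recognises an ovalbumin peptide, after transduction with a short hairpin RNA (shRNA) and transfer into mice bearing B16, a melanoma line. The control hairpin was directed at the bacterial gene LacZ. The 5 others were directed at Ppp2r2d, Egr2, Ptpn2, Arhgap5 and Alk, 1 gene each. Each of the 6 transductions had 3 arrays labelled spleen and 3 labelled tumor, which gave 12 groups. All 12 groups thus share the OT-I receptor, a hairpin, the transfer and a tumor-bearing host, and no array measured untransduced cells. The labels do not say whether the 3 arrays of a group came from separate animals, so p-values measure the spread between arrays. The labels give no age, time after transfer or host strain that could be set beside the values.

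Interferon alpha and beta signal through the receptor pair IFNAR1 and IFNAR2 and the kinases JAK1 and TYK2. The signal leads to the complex ISGF3, which holds STAT2 and IRF9 and binds interferon-stimulated response elements in promoters. The genes induced encode antiviral effectors, sensors of foreign nucleic acid and parts of the pathway itself. In T cells the response also bears on survival and expansion, and the phosphatase encoded by Ptpn2, 1 of the hairpin targets, removes phosphate from JAK and STAT proteins.

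Values are the deposited log2 values, and a difference of 1 is a factor of 2. A gene was called when its Benjamini-Hochberg adjusted p over all 18193 genes was under 0.05 in the limma fit, and n = 3 arrays per group throughout. How the arrays were centred is not stated, so levels were compared between arrays and never between genes. The same values were also tested after quantile normalization and after cyclic loess, and changes of the main results are given beside them. Shares of all genes called are given for the deposited scale only.

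The tissue labels went against marker genes. Whether the labels are exchanged cannot be told from these values. If they are, the direction of every difference between labels turns, and the text follows the labels as given. The mean of 7 melanocyte genes lay between 3.15 and 5.06 on the 18 arrays labelled spleen and between -1.53 and -0.19 on the 18 labelled tumor. The mean of 7 macrophage genes lay between 1.89 and 4.82 on arrays labelled spleen and between -2.25 and -0.63 on those labelled tumor. The mean of 6 CD8 T cell genes lay between 6.22 and 7.29 under the first label and, apart from 1 array at 4.96, between 6.36 and 7.37 under the second. That array, Ptpn2 array 1 labelled tumor, correlated at most at 0.905 with any other, and the 3 LacZ arrays labelled spleen at most at 0.968 to 0.975. The lowest value of an array lay between -1.88 and -1.38 on 4 arrays (LacZ array 2 labelled spleen, and Egr2 array 2, Ptpn2 array 3 and Alk array 1 labelled tumor) and between -4.41 and -2.29 on the others, and its part in the differences of genes with low values was not tested. Results that rest on Ptpn2 array 1 labelled tumor and the 3 LacZ arrays labelled spleen are given with and without them where their omission changed a call. Macrophages and melanoma cells also carry interferon-stimulated transcripts, and their part in the members' values was not tested. In these bulk samples fewer cells of a type and less RNA per cell cannot be told apart. Of the 5 targeted genes, Ppp2r2d was called lower with its own hairpin than with LacZ in arrays labelled spleen (-1.37 ± 0.42 SE, limma adjusted p = 0.0286), and differed by -0.12 in arrays labelled tumor (adjusted p = 0.902). None of the other 4 targets was called under either label: Egr2 differed by -1.19 and -0.08 in arrays labelled spleen and tumor, Arhgap5 by 0.45 and -0.47, and Alk by -1.32 and 1.13. Ptpn2 differed by -0.79 ± 0.28 in arrays labelled spleen (adjusted p = 0.0727) and by -0.38 ± 0.28 in arrays labelled tumor (adjusted p = 0.417). With its own hairpin it read 4.52, 3.94 and 4.67 in arrays labelled spleen, below all others of that label (4.76 to 5.70). In arrays labelled tumor it read 4.49, 5.05 and 5.34 and overlapped with the others.

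Some promoter windows of the members hold the core letters of the element through which the pathway acts. RefSeq promoter windows (GRCm38.p6, 250 bases before to 50 after a transcript start) were at hand for 26 of the 35 genes. The core of the interferon-stimulated response element was searched on both strands as GAAA, any 2 bases and GAAA again, and matches may overlap. It occurred in the windows of 11 of the 26 members (42.3%) and of 3.99% of 27025 genes with a window. The 26 include Isg15, which holds the core, and Ifi44, which does not, and neither was measured. Windows of Usp18, Mx1, Mx2, Oas2, Zbp1, Dhx58, Parp9, Parp14 and Rtp4 are not shown. Printed are 4 members that differed between the tissue labels and hold the response element core, and Isg20, which also differed and holds no such letters in its 3 windows. Capitals mark the match, which begins with TTTC and ends with TTTC where it lies on the other strand. Each stretch runs from base -170 to base -51 relative to the start, except that of Ifih1, which covers bases 21 to 50 after it.
Ifih1 (chr2:62646206-62646235, minus strand): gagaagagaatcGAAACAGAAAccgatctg
Bst2 (chr8:71537523-71537642, minus strand): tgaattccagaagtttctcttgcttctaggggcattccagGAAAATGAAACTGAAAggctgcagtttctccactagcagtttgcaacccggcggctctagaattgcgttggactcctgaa
Rsad2 (chr12:26456503-26456622, minus strand): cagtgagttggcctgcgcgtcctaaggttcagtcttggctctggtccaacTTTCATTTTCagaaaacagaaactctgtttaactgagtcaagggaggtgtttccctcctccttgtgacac
Ifit3 (chr19:34583359-34583478, plus strand): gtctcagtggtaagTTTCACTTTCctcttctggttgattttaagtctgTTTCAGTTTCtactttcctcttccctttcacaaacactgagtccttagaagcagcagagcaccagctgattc
Isg20 (chr7:78913254-78913373, plus strand): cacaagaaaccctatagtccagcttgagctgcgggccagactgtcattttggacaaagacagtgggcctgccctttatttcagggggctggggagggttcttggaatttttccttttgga
In Bst2 both matches share 4 bases, so that GAAA stands 3 times in a row at a spacing of 6 bases. In Ifit3 the 2 matches lie apart, both on the other strand. Of these 4 members with a match, Ifih1, Bst2 and Rsad2 were lower in arrays labelled tumor and Ifit3 was higher. A match describes the letters only.

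Over the 12 groups the mean of the 33 members spanned less than 1 log2 unit. In arrays labelled spleen it was 3.04 ± 0.31 (SD) for LacZ, 3.31 ± 0.24 for Ppp2r2d, 3.26 ± 0.08 for Egr2, 3.71 ± 0.16 for Ptpn2, 3.25 ± 0.07 for Arhgap5 and 3.29 ± 0.23 for Alk. In arrays labelled tumor it was 3.35 ± 0.39 for LacZ, 3.73 ± 0.16 for Ppp2r2d, 3.26 ± 0.42 for Egr2, 3.16 ± 0.17 for Ptpn2, 2.96 ± 0.13 for Arhgap5 and 3.05 ± 0.35 for Alk. The highest means were thus those of Ppp2r2d labelled tumor and Ptpn2 labelled spleen, whose arrays overlapped, and the lowest was that of Arhgap5 labelled tumor. The other neighbours in this order overlapped in their arrays. Single members varied more than their mean. Mx2 ranged from -2.46 to 0.74 over the 36 arrays, and Trim30a, which restrains innate signalling, from 4.64 to 6.76.

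**Figure D1:**
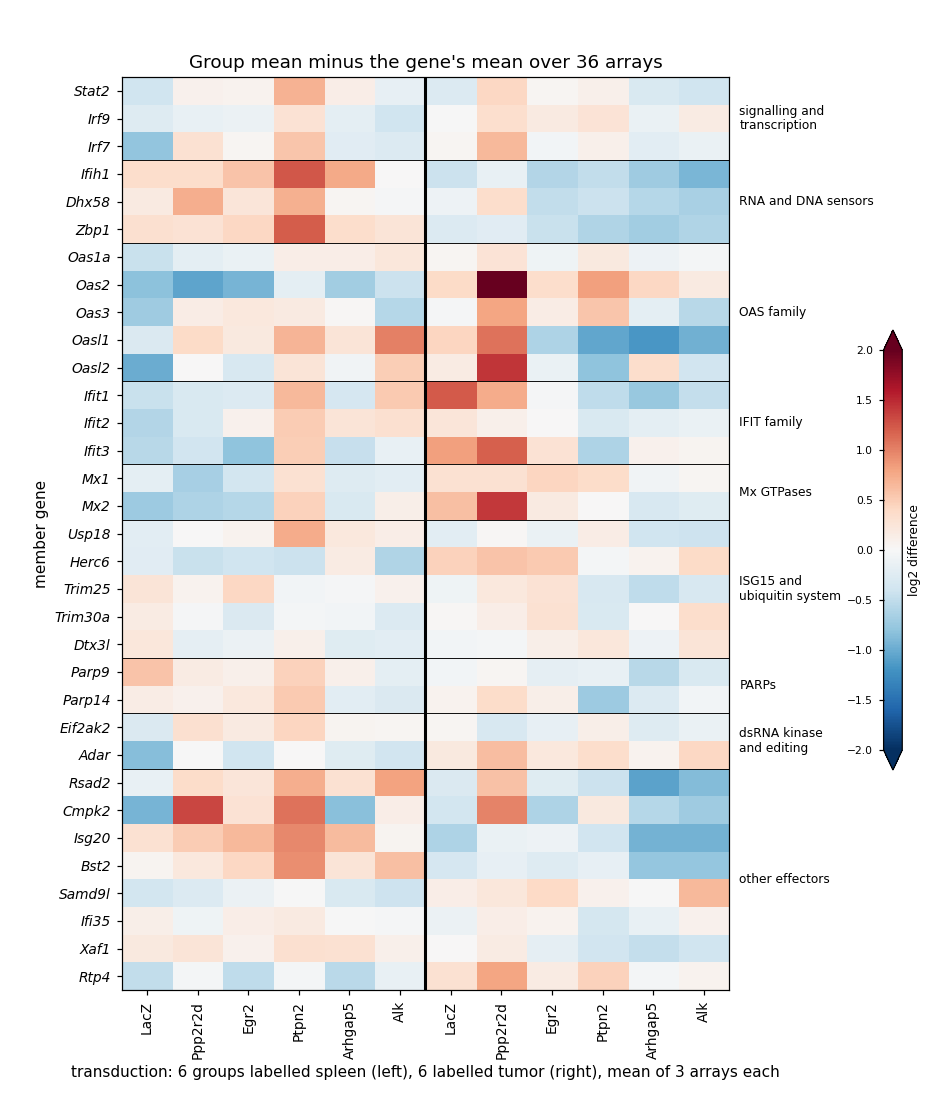
Mean of 3 arrays minus the gene's mean over all 36 arrays (log2, colour), for 33 members in rows by role and 12 groups in columns. The Ptpn2 column labelled spleen is red for most members, and Oas2, Oasl2 and Mx2 are highest in the Ppp2r2d column labelled tumor.

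Much of the spread within a group was shared by the members. In arrays labelled tumor with LacZ, array 1 lay above the group mean for 33 of 33 members and array 2 for 1 of 33. In Alk arrays labelled spleen, array 3 lay above it for 32 members and array 2 for 1. Of all genes, LacZ arrays 1 and 2 labelled tumor lay above their group mean for 55.1% and 40.6%. Of the genes with a mean no lower than the lowest member's, they did so for 77.7% and 13.7%. These LacZ arrays thus also shifted in other genes of such levels. For Alk arrays 3 and 2 labelled spleen the shares were 46.5% and 46.2% of all genes, and 43.2% and 38.3% of those genes. After quantile normalization the counts were 27 and 18 for arrays 1 and 2 of LacZ labelled tumor, and 31 and 2 for arrays 3 and 2 of Alk labelled spleen. The shares of all genes were then 55.6% and 44.7% for these LacZ arrays, and 47% and 48.4% for the Alk arrays. The 2 Alk arrays thus kept their distance in the members. In Egr2 arrays labelled tumor, array 2 lay above for 32 members and for 92.2% of all genes, and after quantile normalization for 17 members.

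On the quantile-normalized scale the members' mean of each Ptpn2 array labelled spleen (3.42, 3.43 and 3.47) lay above all 15 other arrays of that label, the highest of which was Alk array 3 at 3.30. On the deposited scale the Ptpn2 arrays read 3.52, 3.79 and 3.81, and Ppp2r2d array 3 at 3.56 lay among them. By gene, Ptpn2 had the highest group mean of the 6 transductions labelled spleen for 20 of 33 members, against 13.3% of all genes (19 members and 14.5% after quantile normalization). In arrays labelled tumor Ppp2r2d was highest for 22 members against 29.4% of genes, but for 10 against 22.2% after quantile normalization, where Ptpn2 was highest for 13.

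**Figure D2:**
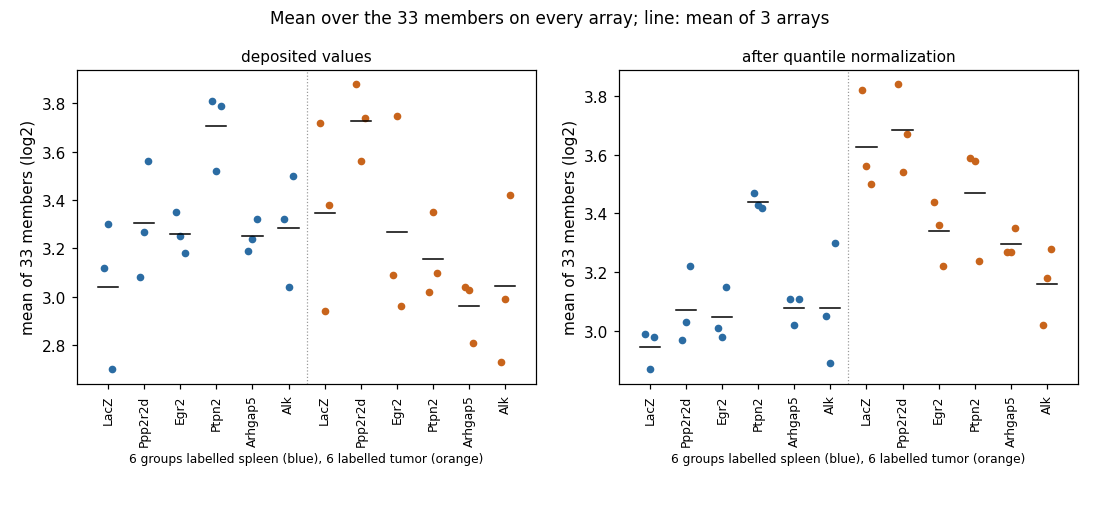
Mean over the 33 members on each array (log2), as deposited at left and after quantile normalization at right; points are arrays, lines the mean of 3. The 3 Ptpn2 arrays labelled spleen read 3.42 to 3.47 at right, above every other array of that label.

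Averaged over the 6 transductions, 19 of the 33 members differed between the tissue labels, and they went both ways. In arrays labelled tumor 9 members were higher (27.3%, where 37.6% of all genes were called higher) and 10 were lower (30.3%, where 33.1% of all genes were). The members' share was therefore at or under that of all genes, and their median difference was -0.10 against 0.13 over all genes. The split depended on the scaling: it was 20 higher and 6 lower after quantile normalization and 18 higher and 8 lower after cyclic loess, with medians of 0.32 and 0.28. Over all genes the median was 0.08 and 0.01 on those scales. The shares of all genes called are not at hand there, so these counts are not set against them. Ifih1, Isg20, Zbp1, Bst2, Rsad2 and Oasl1 were called lower, and Oas2, Herc6, Ifit3, Adar, Rtp4, Mx2, Samd9l, Mx1 and Irf9 higher, on all 3 scales.

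All 3 sensors of nucleic acid were lower in arrays labelled tumor. Ifih1 encodes MDA5, a cytoplasmic sensor of long double-stranded RNA. It read 2.49, 3.35 and 4.09 (lowest, median and highest of 18 arrays) under the spleen label and 1.46, 2.21 and 2.72 under the tumor label. Only the lowest arrays labelled spleen overlapped with the highest labelled tumor. The difference was -1.10 ± 0.10 (limma adjusted p = 4.74e-11), and -0.65 after quantile normalization. Zbp1, a sensor of Z-form nucleic acid that can start necroptosis, read 4.39, 4.80 and 5.74 against 3.14, 3.97 and 4.59, a difference of -0.95 ± 0.12 (adjusted p = 1.83e-08). Its second probe set differed by 0.07, so the call rests on 1 of its 2 sets. Dhx58 encodes LGP2, a helper of MDA5, and differed by -0.63 ± 0.12 (adjusted p = 3.85e-05). This was not called after quantile normalization (-0.16) or when its probe sets were averaged (-0.25).

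The remaining lower members with a steady direction were antiviral effectors. Isg20, an exonuclease that degrades RNA, read 2.51, 3.42 and 4.09 in arrays labelled spleen and 1.54, 2.40 and 3.78 in arrays labelled tumor. The highest of the latter was Egr2 array 2, and the difference was -1.04 ± 0.14 (limma adjusted p = 1.06e-07). Bst2 (tetherin, which holds budding virus at the membrane) differed by -0.82 ± 0.10 (adjusted p = 5.07e-08) and Rsad2 (viperin, which makes a chain-terminating nucleotide) by -0.76 ± 0.14 (adjusted p = 2.29e-05). Oasl1, a relative of the oligoadenylate synthetases that in mice restrains translation of Irf7, differed by -0.75 ± 0.16 (adjusted p = 0.00015). Xaf1 (-0.42), Parp9 (-0.40) and Usp18 (-0.32) were also called lower, but Xaf1 differed by -0.06 and 0.08 after quantile normalization and when its probe sets were averaged, while Parp9 differed by 0.02 and Usp18 by 0.09 after quantile normalization. The call of Usp18, the protease that removes ISG15, ended without any 1 of 19 of the 36 arrays, with an adjusted p of up to 0.0828 (without Ptpn2 array 3 labelled tumor, difference -0.26).

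Oas2 showed the largest difference of all members. It encodes a synthetase whose 2-5A product activates RNase L. It read -0.15, 0.48 and 1.42 in arrays labelled spleen and 1.23, 1.63 and 3.55 in arrays labelled tumor. Only 2 arrays labelled spleen, of Ptpn2 and Alk, reached into the range of the other label. The difference was 1.38 ± 0.12 (limma adjusted p = 8.67e-12) and 1.81 after quantile normalization. Herc6, the ligase that attaches ISG15 in mice, read 2.64, 3.14 and 3.91 against 3.17, 3.92 and 4.68, with a difference of 0.65 ± 0.11 (adjusted p = 9.77e-06). Adar, which edits adenosine in double-stranded RNA, read 1.29, 2.60 and 3.11 against 2.56, 3.07 and 3.48, with a difference of 0.62 ± 0.12 (adjusted p = 3.99e-05). The arrays of both labels overlapped for both genes, and neither was called when its probe sets were averaged (0.19 and 0.14). The other sets of Herc6 differed by -0.30, 0.14 and 0.28, and those of Adar by -0.14 and -0.07.

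Ifit3, which binds foreign RNA together with its partners, read 2.38, 2.99 and 4.33 in arrays labelled spleen and 0.89, 3.81 and 5.01 in arrays labelled tumor. The value of 0.89 was that of Ptpn2 array 1, and the difference was 0.62 ± 0.19 (limma adjusted p = 0.00633). Rtp4, a chaperone of receptors that binds RNA, differed by 0.59 ± 0.13, and the GTPases Mx2 and Mx1, which block incoming virus, by 0.55 ± 0.16 and 0.46 ± 0.11. Mx2 read low, with a mean of -0.88 over the 36 arrays, and a filter on low values left it out. Samd9l, which curbs translation, differed by 0.49 ± 0.11 and Irf9, the DNA-binding part of ISGF3, by 0.27 ± 0.11 (adjusted p = 0.0326). The call of Irf9 ended without any 1 of 8 arrays: LacZ array 3, Ppp2r2d array 1, Egr2 array 3 and Arhgap5 array 1 labelled spleen, and LacZ array 1, Egr2 array 2, Arhgap5 array 2 and Alk array 3 labelled tumor. Its adjusted p then rose to 0.0617 at most, with a difference of 0.22 without LacZ array 3 labelled spleen.

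The other 14 members were not called on the deposited scale. Of the transcription group these were Stat2 (-0.14) and Irf7 (0.13), of the OAS family Oas1a (0.09), Oas3 (0.24) and Oasl2 (0.21), and of the IFIT family Ifit1 (0.06) and Ifit2 (-0.10). Trim25 (-0.25), Trim30a (0.17), Dtx3l (0.13), Parp14 (-0.16), Eif2ak2 (-0.24), Cmpk2 (-0.37) and Ifi35 (-0.10) complete them. After quantile normalization 11 of these 14 were called higher: Oas3 (0.65), Oasl2 (0.62), Irf7 (0.54), Ifit1 and Oas1a (0.52 each), Trim30a (0.40), Dtx3l (0.35), Stat2 and Ifit2 (0.32 each), Ifi35 (0.15) and Trim25 (0.11). The sign of the last 4 depended on the scale, and after cyclic loess Ifi35 (0.12) and Trim25 (0.03) were not called. Parp14 (0.22), Eif2ak2 (0.18) and Cmpk2 (0.07) also turned positive and were not called.

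**Figure D3:**
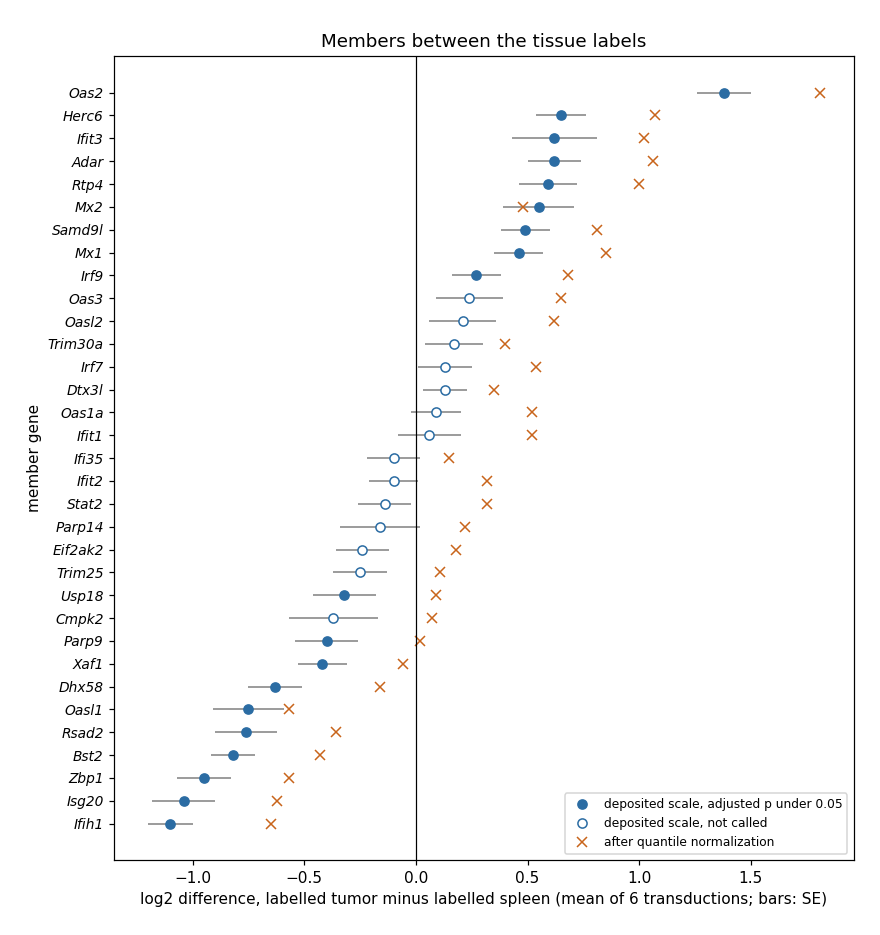
Difference between the tissue labels for each of 33 members (log2, labelled tumor minus labelled spleen, mean of 6 transductions; bars are SE), with crosses after quantile normalization. Oas2 stands highest at 1.38 and Ifih1 lowest at -1.10, and most crosses lie to the right of the points.

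The difference between the tissue labels was not the same in every transduction. With LacZ, 8 members were higher in arrays labelled tumor (6.31% of all genes were) and 2 were lower (18.9%). With Ppp2r2d, 7 were higher (8.1% of genes) and none was lower (14.5% of genes were). With Egr2, 3 were higher (10.5%) and 2 lower (15.9%). With Ptpn2, 1 was higher (24.1%) and 12 were lower (25.1%). With Arhgap5, 1 was higher (10.7%) and 7 were lower (21.6%), and with Alk 3 were higher (33.2%) and 8 lower (20%). These splits also moved with the scaling: with Ptpn2 they were 11 higher and 4 lower after quantile normalization, with Arhgap5 11 and 6, with Alk 9 and 5, with Egr2 9 and 2, with LacZ 15 and 0 and with Ppp2r2d 16 and 0. No share of all genes stands beside these rescaled counts. Single arrays also moved the counts of called members: with LacZ the 10 became 6 without array 1 labelled spleen and 3 without array 1 labelled tumor, and with Ppp2r2d the 7 became 4 without array 1 of either label. With Egr2 the 5 became 3 without array 2 labelled spleen or array 1 labelled tumor, and with Alk the 11 became 7 without array 1 labelled tumor.

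The test of the difference itself, an F test over the 6 transductions, called 8 of 33 members (24.2%), against 9.1% of all genes. They were Ifit1 (limma adjusted p = 0.000962), Oasl1 (0.00237), Oas2 (0.00359), Oasl2 (0.00533), Mx2 (0.0101), Ifit2 (0.0249), Rsad2 (0.0388) and Ifit3 (0.047). By role, 3 were of the OAS family, 3 of the IFIT family, 1 was an Mx GTPase and 1 was Rsad2. An alternative added after the data were seen left out Ptpn2 array 1 labelled tumor and the 3 LacZ arrays labelled spleen. LacZ then has no label difference, so this F test compares the 5 hairpins only, and it called 5 members. Ifit2, Ifit3 and Rsad2 were not called in it, with adjusted p of 0.259, 0.0777 and 0.0632. It is another test than that over 6 transductions, so these losses do not measure the omitted arrays alone. Ifit3's and Rsad2's calls also ended when any 1 of 27 and of 16 arrays was left out, and that of Ifit2 without Ptpn2 array 1 labelled spleen or LacZ array 1 or 3 labelled tumor.

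Ifit1 encodes a protein that binds RNA with a foreign cap. In arrays labelled spleen it read 1.27, 0.99 and 1.10 with LacZ, 0.66, 1.32 and 1.80 with Ppp2r2d, 1.18, 1.04 and 1.66 with Egr2, 2.31, 1.88 and 2.48 with Ptpn2, 1.12, 1.16 and 1.40 with Arhgap5, and 1.42, 2.77 and 2.09 with Alk. In arrays labelled tumor it read 2.93, 2.57 and 2.86 with LacZ, 2.56, 1.90 and 2.45 with Ppp2r2d, 1.94, 1.70 and 1.01 with Egr2, 1.35, 1.57 and 0.24 with Ptpn2, 0.77, 0.96 and 0.71 with Arhgap5, and 0.55, 1.40 and 1.31 with Alk. Ptpn2 and Alk were thus the highest groups under 1 label and among the lowest under the other. Labelled tumor minus labelled spleen was 1.67 ± 0.35 with LacZ (limma adjusted p = 0.000423) and 1.04 ± 0.35 with Ppp2r2d (adjusted p = 0.0262). It was -1.17 ± 0.35 with Ptpn2 (adjusted p = 0.00778) and -1.01 ± 0.35 with Alk (adjusted p = 0.0166). The arrays of the 2 labels did not overlap in any of the 4. After quantile normalization neither the Ptpn2 nor the Alk difference was called (-0.45 and -0.53). The Ptpn2 call also ended without its array 3 labelled tumor (-0.76), and the Alk call without its array 2 labelled spleen (-0.67) or 1 labelled tumor. The Ppp2r2d call ended without its arrays 1 or 2 labelled spleen or 1 or 3 labelled tumor, with a difference of 0.74 without the first.

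Oas2 was the member with the single largest difference. With Ppp2r2d it read 0.08, -0.15 and 0.50 in arrays labelled spleen and 3.55, 2.97 and 3.06 in arrays labelled tumor. With LacZ it read 0.54, 0.45 and 0.14 against 2.14, 1.34 and 1.27. The Ppp2r2d arrays labelled tumor lay above every other array of the series, its arrays labelled spleen had the lowest mean of the 12 groups (0.15), and array 2 among them (-0.15) was the lowest of the 36. The differences were 3.05 ± 0.29 with Ppp2r2d (limma adjusted p = 7e-10), 1.21 ± 0.29 with LacZ, 1.28 with Egr2, 1.01 with Ptpn2 and 1.10 with Arhgap5, all called. With Alk it was 0.61 and not called. Mx2, a member with low values, also differed most with Ppp2r2d. It read -2.14, -1.17 and -1.20 against 0.74, 0.24 and 0.62 with Ppp2r2d (2.04 ± 0.38, adjusted p = 0.000108), and -2.46, -0.95 and -1.41 against 0.09, -0.83 and -0.09 with LacZ (1.33 ± 0.38, adjusted p = 0.00922). The LacZ call of Mx2 ended without array 1 of either label, with 0.90 without the one labelled spleen.

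Oasl1 and Oasl2 are neighbouring relatives of the synthetases, and Oasl2 was called in opposite directions in different transductions. With Ppp2r2d, Oasl2 read 0.84, 0.94 and 1.50 in arrays labelled spleen and 2.80, 2.14 and 2.61 in arrays labelled tumor (1.42 ± 0.36, limma adjusted p = 0.00311). With Ptpn2 it read 1.66, 1.34 and 1.04 against -0.39, 0.99 and 0.22 (-1.07 ± 0.36, adjusted p = 0.0164), and the arrays did not overlap in either transduction. The Ptpn2 call ended without array 1 labelled tumor (-0.74, adjusted p = 0.113) or array 1 labelled spleen, and after quantile normalization (-0.66). Oasl1 read 1.23, 0.71 and 1.56 with Alk in arrays labelled spleen and -0.80, -0.83 and -0.79 in arrays labelled tumor. That difference, -1.97 ± 0.39 (adjusted p = 0.000191), was the most negative of any member. Oasl1 was also called lower with Ptpn2 (-1.71 ± 0.39) and Arhgap5 (-1.42 ± 0.39), and differed by 0.72 ± 0.39 with LacZ and 0.70 ± 0.39 with Ppp2r2d, neither called.

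Rsad2 was called lower in arrays labelled tumor with Ptpn2 (-1.16 ± 0.35), Arhgap5 (-1.36 ± 0.35) and Alk (-1.67 ± 0.35), and differed by -0.14 with LacZ and 0.23 with Ppp2r2d. Its Ptpn2 call was lost after quantile normalization (-0.48). Ifit2 read 2.31, 2.80 and 2.46 against 3.52, 2.89 and 3.64 with LacZ (0.83 ± 0.26, limma adjusted p = 0.0193) and 3.84, 3.04 and 3.99 against 2.77, 3.04 and 2.60 with Ptpn2 (-0.82 ± 0.26, adjusted p = 0.0131). The LacZ call ended without array 1 labelled spleen or arrays 1 or 3 labelled tumor, and the Ptpn2 call without arrays 1 or 3 labelled spleen or 3 labelled tumor and after quantile normalization (-0.10). Ifit3 was higher with LacZ (1.38 ± 0.47) and Ppp2r2d (1.59 ± 0.47) and was not called with Ptpn2, where it read 4.33, 3.57 and 3.92 against 0.89, 3.81 and 3.80. The LacZ call of Ifit3 ended without any of 4 arrays (1 and 3 of each label), with an adjusted p of up to 0.102 and a difference of 1.13 there.

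Ifih1, by contrast, was called lower in arrays labelled tumor in 5 of 6 transductions. Its differences were -0.78 ± 0.25 with LacZ, -1.16 with Egr2, -1.74 with Ptpn2, -1.48 with Arhgap5 and -0.93 with Alk, and -0.50 with Ppp2r2d (not called). The LacZ call ended without array 2 of either label (-0.64 without the one labelled spleen) and after quantile normalization (-0.46). Zbp1 was called lower with Egr2, Ptpn2, Arhgap5 and Alk, and Bst2 with Ptpn2, Arhgap5 and Alk. The Zbp1 calls of Egr2, Arhgap5 and Alk were lost when its sets were averaged (-0.39, -0.57 and -0.32, in that order).

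**Figure D4:**
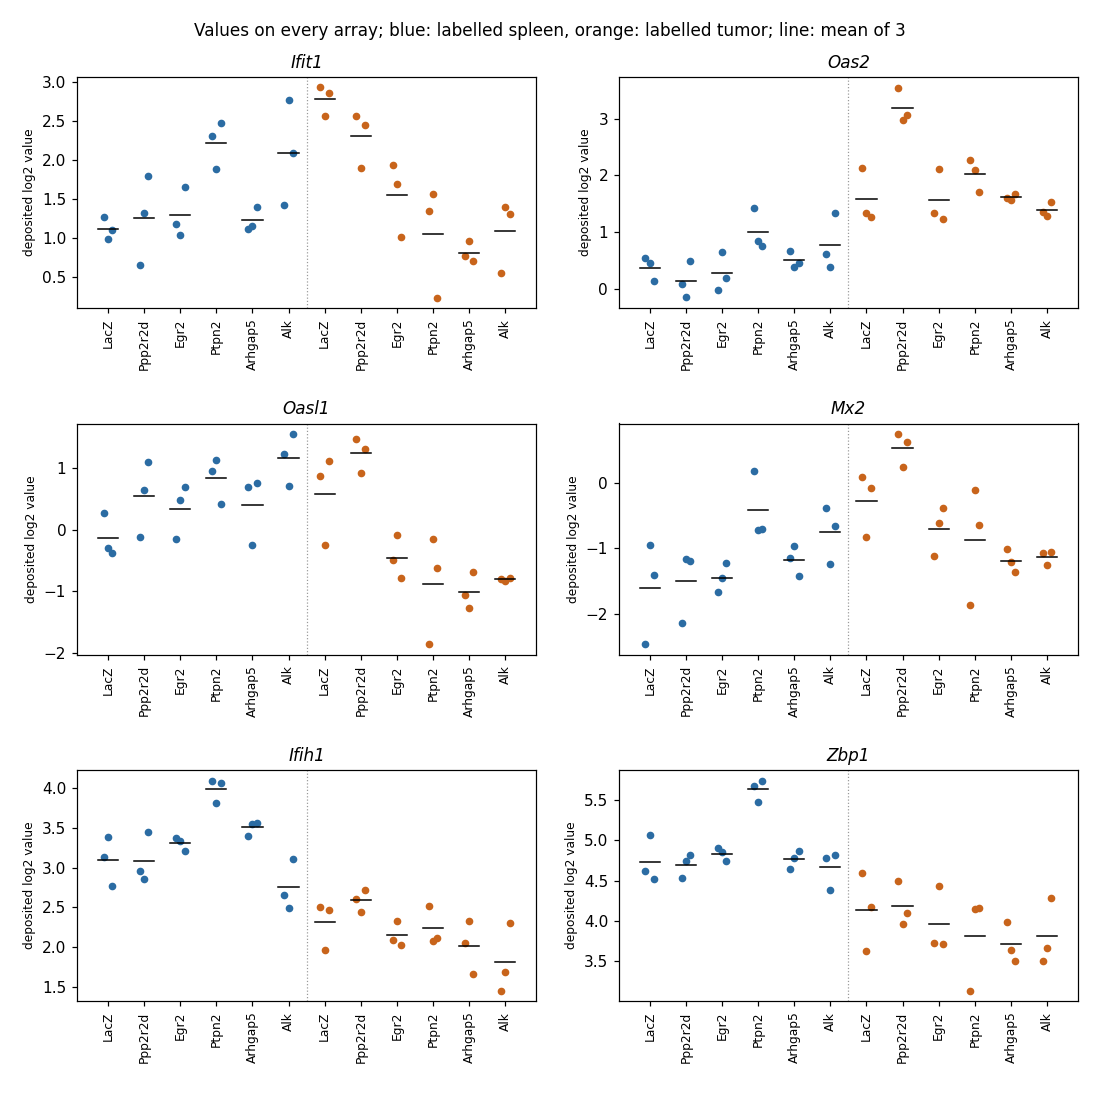
Deposited log2 value of 6 members on each of 36 arrays, in 12 groups; points are arrays, lines the mean of 3, with a scale of its own in each panel. Ifit1 is high with LacZ and Ppp2r2d among arrays labelled tumor, Oas2 reads 2.97 to 3.55 with Ppp2r2d there, and Ifih1 and Zbp1 are highest with Ptpn2 labelled spleen.

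Among the 6 transductions in arrays labelled spleen, 5 members differed in the F test (15.2%), a share near that of all genes (12.2%). They were Cmpk2 (limma adjusted p = 0.00319), Ifih1 (0.0114), Irf7 (0.0139), Ifit2 (0.0232) and Oasl2 (0.0487). Without the 3 LacZ arrays and Ptpn2 array 1 labelled tumor, the F test compares the 5 hairpins only. Irf7, Ifit2 and Oasl2 were not called in it (0.193, 0.276 and 0.644). Single arrays that ended a call were LacZ array 3 for Irf7, Ptpn2 array 1 for Ifih1, LacZ arrays 1 and 3 and Ptpn2 arrays 1 and 3 for Ifit2, and 15 of the 18 for Oasl2. Cmpk2 encodes a mitochondrial nucleotide kinase next to Rsad2 in the genome, with no gene between them. It read 0.97, 0.01 and -0.29 with LacZ, 2.04, 2.26 and 3.16 with Ppp2r2d, 1.60, 1.65 and 1.10 with Egr2, 2.46, 1.72 and 2.54 with Ptpn2, 0.07, 0.45 and 0.45 with Arhgap5, and 1.55, 0.71 and 1.62 with Alk. Ppp2r2d and Ptpn2 arrays thus lay above all others of that label, and LacZ and Arhgap5 arrays were the lowest but for LacZ array 1, which lay above Alk array 2.

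Against LacZ in arrays labelled spleen, the Ptpn2 hairpin went with higher values of 10 members (30.3%), where 3.37% of all genes were called higher, and with lower values of none, where 6.21% of all genes were called lower. The median difference of the 33 members was 0.71 against -0.15 over all genes, and 28 of the 33 differences were positive. After quantile normalization 7 were called higher and 1, Herc6, lower (median 0.44 against 0.01), and after cyclic loess 9 and 0 (median 0.41). The 10 spanned most roles: Stat2 and Irf7 of the transcription group, Ifih1 and Zbp1 of the sensors, Oasl2, Ifit1, Ifit2, Mx2, Cmpk2 and Bst2.

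Cmpk2, with the array values above, differed by 2.01 ± 0.49 (limma adjusted p = 0.0103). Irf7, the factor that amplifies interferon alpha and beta expression, read 2.83, 2.41 and 2.09 with LacZ and 3.70, 3.86 and 3.79 with Ptpn2. Every Ptpn2 array lay above every LacZ array, and the difference was 1.34 ± 0.28 (adjusted p = 0.0044). Oasl2 read 0.58, -0.05 and -0.23 with LacZ and 1.66, 1.34 and 1.04 with Ptpn2, also without overlap, a difference of 1.25 ± 0.36 (adjusted p = 0.0277). The other 7 differed by 0.88 (Bst2) to 1.19 (Mx2, whose low values did not pass the filter on them). Stat2, a part of ISGF3, read 1.89, 1.13 and 1.27 against 2.75, 2.51 and 2.32 (1.10 ± 0.29, adjusted p = 0.0184).

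These calls rested on few arrays. Only that of Irf7 held without any 1 of the 6 arrays, with an adjusted p of 0.0205 at most. The call of Cmpk2 ended without Ptpn2 array 1 (difference 1.90, limma adjusted p = 0.0568), that of Ifit2 without Ptpn2 array 1 or 3 (0.92 without array 3), and that of Stat2 without LacZ array 2 or Ptpn2 array 1 (0.98). Those of Ifih1, Zbp1, Bst2, Mx2, Ifit1 and Oasl2 ended without 3 to 5 of the 6 arrays, always with a positive difference left. Without Ptpn2 array 1 the differences were 0.84 for Ifih1, 0.87 for Zbp1, 0.89 for Bst2, 0.90 for Mx2 and 1.09 for Oasl2, and without Ptpn2 array 3 that of Ifit1 was 0.98. The count of called members was 1 without Ptpn2 array 1, 4 without Ptpn2 array 3 or LacZ array 3, 6 without Ptpn2 array 2 and 8 or 9 without the others. After quantile normalization Stat2, Oasl2 and Ifit1 were not called. The 3 LacZ arrays labelled spleen stood apart from the other arrays, and melanocyte and macrophage markers also read higher with Ptpn2 than with LacZ: 7 of 7 in both lists were positive, with medians of 0.87 each and 1 called in each. Their part in the members' differences was not tested.

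Set against the other 4 hairpins in place of LacZ, most members also had positive differences with Ptpn2. Both comparisons use the same 3 Ptpn2 arrays, so they are not independent. Members also moved together within arrays, so a count of positive differences is not a count of replicates. Of 33, 31 differences were positive with a median of 0.43 against 0.01 over all genes, and this held for 31 members after quantile normalization (median 0.36) and after cyclic loess (0.34). Called were 2 members (6.06%), against 0.423% of all genes called higher. Ifih1 read 4.09, 3.81 and 4.06 with Ptpn2, and the 12 arrays of the other hairpins lay between 2.49 and 3.56, a difference of 0.82 ± 0.20 (limma adjusted p = 0.0264). Zbp1 read 5.67, 5.48 and 5.74 with Ptpn2 and 4.39 to 4.90 with the other hairpins, a difference of 0.89 ± 0.22 (adjusted p = 0.041). For both, all 3 Ptpn2 arrays lay above all 15 other arrays labelled spleen, LacZ included. The call of Ifih1 ended without any 1 Ptpn2 array (0.77 without array 1, adjusted p = 0.251) and that of Zbp1 without 13 of the 15 arrays (0.83 without Ptpn2 array 3, adjusted p = 0.305). After quantile normalization and after cyclic loess 5 were called, namely Ifih1, Zbp1, Irf9, Mx1 and Bst2. In this comparison the macrophage markers had a median of -0.21 (0 of 7 called) and the melanocyte markers one of 0.40 (0 of 7 called). Of 4 markers of plasmacytoid dendritic cells, which are strong producers of interferon, 1 was called higher (median 0.31). The part of these cell types in the members' differences was not tested.

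**Figure D5:**
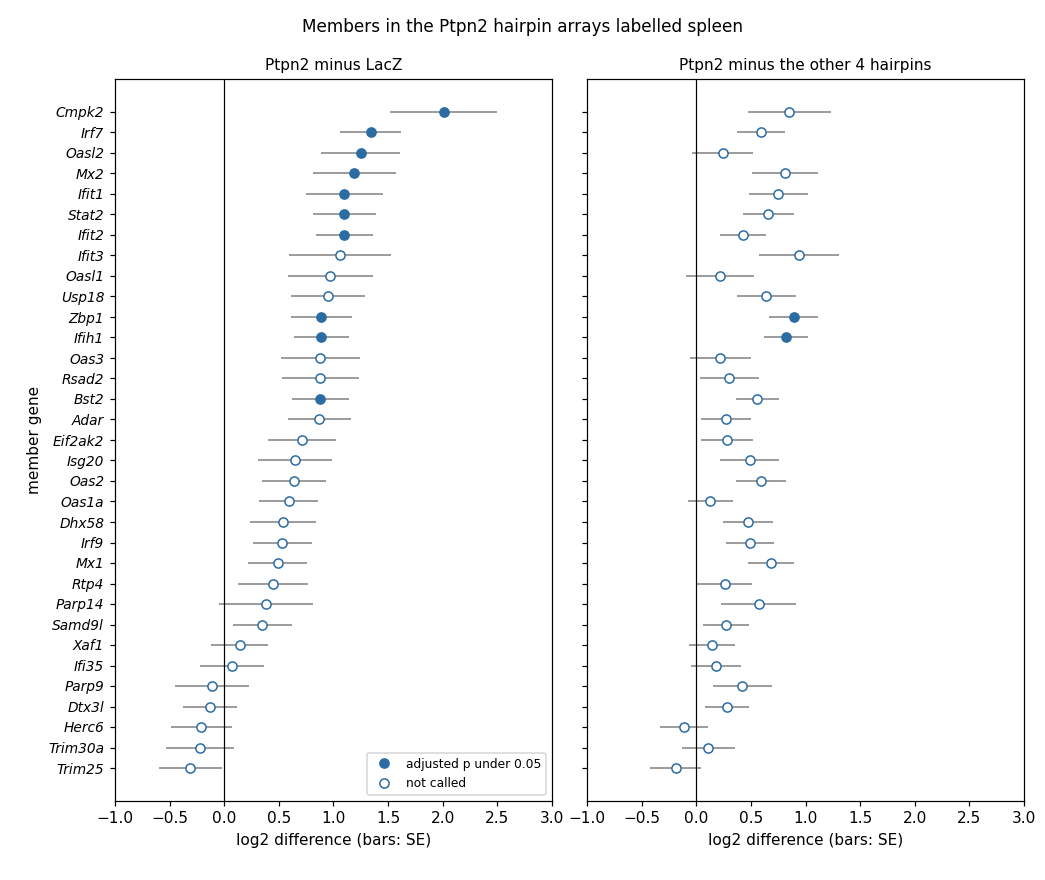
Difference of each member between the Ptpn2 hairpin and LacZ (left) or the other 4 hairpins (right) in arrays labelled spleen (log2; bars are SE; filled points have an adjusted p under 0.05). Most points lie right of 0 in both panels, 28 of 33 at left and 31 of 33 at right.

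The other hairpins differed from LacZ in fewer members under the spleen label, and these comparisons share the LacZ arrays. With Ppp2r2d, 2 members were higher (6.06%, against 6.15% of genes): Cmpk2 by 2.26 ± 0.49 (limma adjusted p = 0.00262) and Irf7 by 1.09 ± 0.28 (adjusted p = 0.0114). Irf7 read 3.32, 3.57 and 3.70 with Ppp2r2d, above all 3 LacZ arrays, and its call ended without Ppp2r2d array 2 or 3 (1.00 without the latter). With Alk, 3 members were higher (against 3.63% of genes): Oasl2 by 1.47 ± 0.36, Oasl1 by 1.30 ± 0.39 and Ifit2 by 0.91 ± 0.26. Ifit2 read 3.49, 3.23 and 3.59 with Alk and Oasl2 1.65, 1.09 and 1.97, without overlap with LacZ. None of the 3 calls held without Alk array 3, where the differences were 1.27, 1.10 and 0.84. With Arhgap5 only Ifit2 was called (0.84 ± 0.26, adjusted p = 0.0436, where 3.03% of genes were higher). It read 3.31, 3.48 and 3.29, and the call ended without any of the 6 arrays but LacZ array 2 (0.78 without Arhgap5 array 2). With Egr2 none was called in either direction (3.23% of genes were). By an unadjusted p under 0.05 limma gave 4, and a fit to the arrays of that label alone called 3. The share of all genes is not at hand for either, so nothing is read from them about the members.

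Among the 6 transductions in arrays labelled tumor, 6 members differed in the F test (18.2%, against 11% of genes): Oasl1 (limma adjusted p = 0.000594), Oas2 (0.00073), Ifit1 (0.000979), Oasl2 (0.00194), Mx2 (0.0168) and Rsad2 (0.0188). All 6 were also among those whose tissue label difference varied. The calls of Mx2 and Rsad2 ended without Ppp2r2d array 1 or 3, with adjusted p of up to 0.091 and 0.0952. In a fit to the arrays of that label alone Oasl2, Mx2 and Rsad2 were not called. Oasl1, with the smallest p, read 0.88, -0.24 and 1.12 with LacZ and 1.48, 0.93 and 1.32 with Ppp2r2d, but -0.49, -0.09 and -0.79 with Egr2, -1.86, -0.15 and -0.63 with Ptpn2, -1.06, -1.27 and -0.69 with Arhgap5 and -0.80, -0.83 and -0.79 with Alk. All arrays of the last 4 hairpins lay below 0, and of LacZ and Ppp2r2d only LacZ array 2 did.

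Against LacZ in arrays labelled tumor, single members were called. The comparisons with LacZ share its 3 arrays, so they are not independent. The mean of Ifit1 in these LacZ arrays, 2.79, was the highest of the 12 groups. With Ppp2r2d, Oas2 was higher by 1.61 ± 0.29 (limma adjusted p = 0.0028), 1 of 33 members where 0.863% of all genes were higher. This held without any 1 of the 6 arrays (adjusted p of 0.0367 at most). With Arhgap5, Ifit1 was lower by -1.97 ± 0.35 (adjusted p = 0.00212), where 0.297% of genes were lower. With Ptpn2, Ifit1 was lower by -1.73 ± 0.35 (adjusted p = 0.00744), where 0.121% of genes were lower. Ifit1 did not overlap with LacZ in either, but the Ptpn2 call ended without LacZ array 3 (-1.70, adjusted p = 0.0569) and in a fit to the arrays of that label alone (adjusted p = 0.0672). Egr2 and Alk gave no call (0.0275% and 0.0055% of genes in either direction), although Ifit1 differed from LacZ by -1.23 and -1.70 there. By an unadjusted p under 0.05, limma gave 2 members with Egr2 and 3 with Alk. The share of all genes at that threshold was not counted, so nothing is read from these about the members. With Ptpn2 against the other 4 hairpins in arrays labelled tumor, Oasl2 was lower by -1.13 ± 0.28 (adjusted p = 0.021), where 2.59% of genes were lower. Without Ptpn2 array 1 it was -0.80 and not called (adjusted p = 0.593). The median difference was 0.03 against 0.09 over all genes. After quantile normalization 4 members were called higher and 2 lower there, with a median of 0.24.

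The other genes of the pathway were followed in lists that exclude the members. Between the labels, 37.6% of all genes were called higher in arrays labelled tumor and 33.1% lower. Counts in these lists are given on the deposited scale only. The members' own split moved with the scaling, and that of the lists was not counted on other scales. Of 10 receptor and kinase genes, 4 were higher in arrays labelled tumor and 2 were lower: Ifngr2 (1.64 ± 0.19), Jak1 (0.92 ± 0.10), Ifngr1 (0.59 ± 0.13) and Il10rb (0.56 ± 0.11) against Ifnar1 (-0.31 ± 0.11) and Jak2. Of 6 interferon regulatory factors, Irf1 was higher (1.41 ± 0.16) and Irf8 (-3.90 ± 0.11) and Irf4 (-0.59 ± 0.18) were lower. Irf8 is a defining factor of myeloid cells. Between the labels 7 of 7 macrophage markers were lower too, by 2.40 to 7.23 on the log2 scale. Their part in the difference of Irf8 was not tested, nor was whether they follow it within a label. Of 10 interferon genes, 2 were lower, Ifng (-1.37 ± 0.10) and Ifnz (-1.09 ± 0.15). Another 6, of the alpha group, were called higher, but some of these, such as Ifna2, lay near the lowest value of the array, which itself differed between arrays, and no direction is read from them.

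Of 12 further genes of nucleic acid sensing, 4 were higher in arrays labelled tumor, led by Ikbke (1.89 ± 0.13) and Ddx58 (0.89 ± 0.10), which encodes the RNA sensor RIG-I. Tlr3 (-1.85 ± 0.19), Cgas (-0.75 ± 0.10) and Sting1 (-0.65 ± 0.16) were lower. Of 13 negative regulators, 7 were higher, with Socs3 (2.23 ± 0.14) and Tnfaip3 (1.10 ± 0.11) first, and 4 were lower, among them Ptpn11 (-0.90 ± 0.10) and Pias3 (-0.86 ± 0.14). Of 46 other interferon-stimulated genes, 10 were higher (37.6% of all genes were) and 24 lower (33.1%), with a median of -0.39 against 0.13 over all genes. The largest were Ifitm2 (-4.37 ± 0.18), Ifitm3 (-4.01 ± 0.20), Ifi204 (-3.43) and Mlkl (-2.51 ± 0.11). Ifi204 lay near the lowest value of several arrays. All 7 macrophage and all 7 melanocyte markers were lower too, with medians of -4.79 and -4.70, and their part in these differences was not tested.

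With Ptpn2 against LacZ in arrays labelled spleen, 7 of those 46 genes were higher (3.37% of all genes were) and none was lower (6.21%). Their median was 0.42 against -0.15 over all genes. The 7 were led by Iigp1 (2.65 ± 0.31), an immunity-related GTPase, Ube2l6 (1.95 ± 0.41), the enzyme that hands ISG15 to its ligase, Tor3a (1.52 ± 0.37) and Phf11d (1.45 ± 0.37). Ifnar1, a chain of the interferon alpha and beta receptor, was higher by 0.87 ± 0.26, Tlr7 by 2.00 ± 0.36 and Myd88 by 0.92 ± 0.30. Tlr7 read -1.99, -0.09 and -1.48 with LacZ and 1.01, 1.27 and 0.18 with Ptpn2. With Arhgap5 it read 1.17, 1.02 and 0.60, so high values of Tlr7 were not particular to Ptpn2. Of 13 negative regulators none was called. Against the other 4 hairpins Ifnar1 (0.25) and Tor3a (-0.25) were not called. Iigp1 (1.47 ± 0.24), Igtp (0.99 ± 0.22), Irgm1 (0.99 ± 0.25), Slfn8 (0.94 ± 0.20) and Myd88 (1.14 ± 0.24) were called higher there too. The immunity-related GTPases among them are known to respond to interferon gamma as well. Myd88 read 3.90, 3.44 and 3.59 with Ptpn2 in these arrays. It read 1.05, 1.08 and 1.49 with Arhgap5, but 2.45 to 3.28 with Ppp2r2d, Egr2 and Alk. Low Arhgap5 arrays thus add to its difference from the mean of the other 4 hairpins.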

How the data were processed

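RNA of transferred CD8 T cells was measured on 36 Affymetrix mouse expression arrays after Trizol extraction and biotin labelling, per the labels' protocols. The authors deposited log2 values made with RMA, per the submitters' processing notes; the version is not given in the sources used here, and the array medians lie between -0.48 and -0.23. Every column was mapped to a sample by its label. RMA combines the probes of a set into 1 value and understates differences of genes near background. The number of arrays, 3 per group, limits the precision.

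Of 45101 probe sets, 34945 list 1 gene, 932 several and 9160 none in the platform annotation, and 64 are controls. Sets with 1 gene were kept and each gene was represented by its set with the highest mean, which left 18193 genes; 18145 symbols were found in the RefSeq table. R 4.3.3 with limma 3.58.1 (lmFit and eBayes) fitted 1 coefficient per group over the 36 arrays, with 24 residual and 6.75 prior degrees of freedom. There were 22 comparisons, each adjusted by Benjamini-Hochberg over all genes. Tests are two-sided.

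Members and lists were chosen with earlier results of these data known. Values by array are given for the members with the largest tissue label differences, for the 4 with the smallest p in each F test, for up to 3 called per hairpin comparison and for those with the highest and lowest mean; pathway genes are named up to 4 per list and comparison by size, and Ifnar1, Jak2, Sting1, the interferon alpha genes, and Tor3a against the other hairpins, as well as members whose calls changed, were added after their values were seen. Tested on simulated data with 50 changed genes per size among 18193, the mean tissue comparison recovered 20 at a log2 difference of 0.5, 43 at 1 and 50 at 2. The comparison of Ppp2r2d with LacZ labelled tumor recovered 1, 5 and 44. Alternatives were the mean of probe sets, a filter on low values, quantile normalization, cyclic loess, array weights, replicate blocks, arrays of 1 label only, the hairpins without LacZ, leaving out each array, and, added after the data were seen, leaving out the 4 arrays that stood apart.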

Additional observations from a re-analysis of the deposited data

Results flagged for a closer look

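For 8 members the difference between the tissue labels differed among the 6 transductions by the limma F test of that difference. The adjusted p was 0.000962 for Ifit1, 0.00237 for Oasl1, 0.00359 for Oas2, 0.00533 for Oasl2, 0.0101 for Mx2, 0.0249 for Ifit2, 0.0388 for Rsad2 and 0.047 for Ifit3. The first 5 kept their call when any 1 of the 36 arrays was left out, and the last 3 did not. Ifit1 differed by 1.67 with LacZ and by -1.17 with Ptpn2, and Oas2 by 3.05 with Ppp2r2d and 0.61 with Alk.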

How the results depend on the processing

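Counts of called members moved by over 1.5 times as follows; the cause was not tested. For labelled tumor against labelled spleen, the mean of the 6 transductions (19) stayed between 18 and 20 when 1 array was left out and was 22 without LacZ. With LacZ (10) cyclic loess gave 17; with Ppp2r2d (7) quantile normalization gave 16, cyclic loess 14 and array weights 18; with Egr2 (5) these gave 11, 12 and 10, and leaving out the 4 arrays that stood apart 8; with Ptpn2 (13) weights gave 7; with Arhgap5 (8) the 3 gave 17, 18 and 14; with Alk (11) weights gave 21. Leaving out 1 array gave 3 to 11 with LacZ, 4 to 8 with Ppp2r2d, 3 to 7 with Egr2 and 7 to 12 with Alk.

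The F test in arrays labelled spleen (5) gave 8 with averaged probe sets, 10 with quantile normalization, 14 with loess, 24 with weights, 11 with that label alone and 2 to 5 without 1 array. In arrays labelled tumor (6) it gave 10 with quantile normalization or loess, 21 with weights, 3 with that label alone and 4 to 11 without 1 array. The test of the label difference among transductions (8) gave 5 without the 4 arrays, where it compares the 5 hairpins only, and 5 to 10 without 1.

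Against LacZ in arrays labelled spleen, Ppp2r2d (2) gave 4 with averaged probe sets, the filter, quantile normalization or that label alone, and 1 to 4 without 1 array; Egr2 (0) gave 3 and Alk (3) 6 with that label alone, Alk 7 with loess and 0 to 3 without 1 array; Arhgap5 (1) gave 3 with averaged sets, 2 with that label alone and 0 to 2; Ptpn2 (10) gave 1 to 9. Against LacZ in arrays labelled tumor, the filter gave 2 with Ppp2r2d, Ptpn2 and Arhgap5 (1 each) and 1 with Alk (0). Quantile normalization gave 3 with Ptpn2, 2 with Arhgap5 and 1 with Alk, and loess 2 in each; weights gave 7 with Ppp2r2d, 2 with Egr2 (0), 0 with Ptpn2, 3 with Arhgap5 and 15 with Alk; that label alone gave 0 with Ptpn2. Without 1 array the counts were 1 to 4, 0 to 4, 1 to 2 and 0 to 2 for Ppp2r2d, Ptpn2, Arhgap5 and Alk. For Ptpn2 against the other 4 hairpins, labelled spleen (2), quantile normalization or loess gave 5, weights 16 and leaving out 1 array 0 to 2; labelled tumor (1), they gave 6, 5 and 0, that label alone and the 4 arrays left out 0, and leaving out 1 array 0 to 4. Leaving out the 4 arrays was not possible against LacZ labelled spleen.

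Same-numbered arrays of both labels correlated between -0.24 and 0.24 in their deviations, over 0.1 in 4 of 18 pairs. The labels do not say whether such arrays came from the same animal, and these correlations cannot decide it. A replicate block gave 0 for Arhgap5 against LacZ and 1 for Ptpn2 against the other hairpins, both labelled spleen, and a replicate block by transduction gave 3 for the Egr2 label difference; no other count moved by over 1.5 times under either. Label differences turned positive after quantile normalization for Stat2 and Ifit2 (0.32 each), Usp18 (0.09), Trim25 (0.11), Parp9 (0.02) and Ifi35 (0.15), after loess for Stat2 (0.21), Ifit2 (0.28) and Usp18 (0.03), and with averaged probe sets for Xaf1 (0.08).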
